A study of Mus musculus with 3 samples.

Results

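The genes described here are 10 that are widely read as signs that a cell has become a neuron: the microtubule genes *Tubb3*, *Dcx*, *Map2*, *Mapt* and *Stmn2*, the growth cone and adhesion genes *Gap43* and *Ncam1*, and the RNA-binding protein genes *Elavl3*, *Elavl4* and *Rbfox3*. They were followed across 3 sorted cell populations, each measured on 1 array. A probe was taken for a gene when the accession printed for it was a RefSeq transcript of that gene. This gave 20 probes for the 10 genes, out of 26582 probes that named 20145 genes and 55681 probes for mouse transcripts in all. The genes are named by what they encode and not by a measured value, although earlier results of these data were known when they were picked. *Dcx*, *Mapt*, *Ncam1* and *Rbfox3* had 3 probes each, *Map2* and *Elavl4* had 2, and *Tubb3*, *Stmn2*, *Gap43* and *Elavl3* had 1.

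The first 2 populations came from J14, a single mouse ES cell line of 129S4/SvJae origin, male by its label, that carries an Lhx6-GFP BAC, a large transgene in which regulatory sequences of *Lhx6* drive GFP. The labels add a virus with a 692-mCherry enhancer reporter to both. J14 cells were differentiated as pooled aggregates towards the medial ganglionic eminence (MGE), the part of the embryonic ventral forebrain that gives rise to many cortical interneurons, with 100 ng/ml of the Wnt antagonist Dkk-1 and, from day 3, 6 nM of the hedgehog pathway agonist SAG, and were sorted at D12 into cells with GFP (ES-Lhx6-GFP+, here ES GFP+) and without it (ES-Lhx6-GFP-, here ES GFP-). The third population (MGE-GFP+) was sorted from MGE of E12.5 embryos of Lhx6-GFP BAC mice on a CD1 background, labelled female, with no culture. GFP- cells of the MGE were not analysed here, so the MGE array has no negative sort of its own, and origin, strain, sex and culture cannot be told apart in any comparison with it.

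A neuron that leaves the cell cycle builds microtubules from tubulins that include the class III beta-tubulin encoded by *Tubb3*, and binds and stabilizes them with doublecortin (*Dcx*) in migrating cells, with *Map2* in dendrites and with tau (*Mapt*) in axons, while the stathmin encoded by *Stmn2* promotes their disassembly at the growth cone. *Gap43* is a membrane protein of growth cones and *Ncam1* a cell adhesion molecule of the immunoglobulin family that is also made outside neurons. The Hu proteins encoded by *Elavl3* and *Elavl4* bind AU-rich elements of mRNAs, and *Rbfox3*, known as NeuN, is a splicing regulator that appears as neurons mature.

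The sequence before the start of a transcript is shown for 4 of these genes. *Dcx* and *Elavl3* stand for the genes that were at least 2-fold higher in ES GFP+ than in ES GFP- cells, *Elavl4* has start sites far apart and a pair of probes that disagreed, and *Rbfox3* had an order of the 3 populations that no other of the genes had. The windows are the 250 bases before an annotated start, from RefSeq on GRCm38.p6, and each is written 5′ to 3′ on the strand of the gene. Capitals mark the TATA motif TATAAA and the E-box motifs CAGCTG and CAGATG, each searched on both strands, so that CATCTG is the last of these read from the other strand.

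Dcx, chrX:143933125-143933374, minus strand: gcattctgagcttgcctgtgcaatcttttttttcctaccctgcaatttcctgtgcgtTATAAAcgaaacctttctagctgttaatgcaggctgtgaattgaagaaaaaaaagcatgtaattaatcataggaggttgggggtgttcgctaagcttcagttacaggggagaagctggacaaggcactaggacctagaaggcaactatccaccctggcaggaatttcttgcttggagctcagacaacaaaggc

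Elavl3, chr9:22052024-22052273, minus strand: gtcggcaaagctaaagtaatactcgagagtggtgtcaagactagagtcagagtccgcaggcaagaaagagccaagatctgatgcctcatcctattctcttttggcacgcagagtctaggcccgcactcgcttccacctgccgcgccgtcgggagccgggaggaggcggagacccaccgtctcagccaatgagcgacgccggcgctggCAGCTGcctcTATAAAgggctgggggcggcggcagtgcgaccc

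Elavl4, chr4:110351912-110352161, minus strand: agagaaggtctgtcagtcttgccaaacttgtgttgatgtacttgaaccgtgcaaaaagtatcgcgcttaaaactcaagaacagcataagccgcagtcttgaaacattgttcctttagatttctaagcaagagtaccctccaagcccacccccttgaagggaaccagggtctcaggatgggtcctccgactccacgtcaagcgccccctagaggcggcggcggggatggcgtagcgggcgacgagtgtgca

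Elavl4, chr4:110287528-110287777, minus strand: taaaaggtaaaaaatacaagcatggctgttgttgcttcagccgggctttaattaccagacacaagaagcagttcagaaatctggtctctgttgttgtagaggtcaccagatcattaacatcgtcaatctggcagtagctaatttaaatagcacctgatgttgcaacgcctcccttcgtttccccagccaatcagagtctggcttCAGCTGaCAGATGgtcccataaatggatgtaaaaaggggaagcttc

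Rbfox3, chr11:118761042-118761291, minus strand: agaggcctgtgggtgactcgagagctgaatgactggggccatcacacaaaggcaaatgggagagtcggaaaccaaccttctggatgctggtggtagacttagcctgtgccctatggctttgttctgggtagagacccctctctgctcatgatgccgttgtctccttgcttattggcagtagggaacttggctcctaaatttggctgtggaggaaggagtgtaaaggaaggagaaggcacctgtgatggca

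The TATA motif was present in the *Dcx* and *Elavl3* windows, near the start in that of *Elavl3* but far from it in that of *Dcx*. In the *Elavl3* window CAGCTG lay just before the TATA motif. In the second *Elavl4* window CAGCTG and CAGATG were 1 base apart, while the first *Elavl4* window and the *Rbfox3* window held none of the 3 motifs. Among the 32851 promoter windows of the same length in the table, 12.4% held TATAAA, 13.0% CAGCTG and 14.4% CAGATG. The table held 10 windows of 6 of the genes, 4 of them for *Elavl4* and 2 for *Dcx*, and its outermost *Elavl4* starts lay 65077 bases apart. The GC content was 81.2% in the *Map2* window and 68.0% in that of *Tubb3*, against 44.8% in the *Dcx* window shown and a median of 52.4% over all windows. Windows of *Mapt*, *Stmn2*, *Gap43* and *Ncam1* were not used here. A motif match describes the letters of a window only, and the arrays do not tell which start a transcript came from.

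Each array had 62976 spots, and all 3 were on 1 slide and read in 1 scan. No comparison has a replicate check, so no tests were run and no p-values are given. Of the mouse probes, 77.1% to 90.6% were called well above background by the scanner software, with the most on the ES GFP+ array, where 86 of 106 non-mouse control probes (adenovirus E1A and the synthetic ERCC set) also had that call, against 34 on each of the other arrays. Because dim probes read higher on the ES GFP+ array, shares and medians are given over all genes and also over the 8935 genes that had a probe brighter, on all 3 arrays, than 95% of these control probes, called bright genes below. Levels are log2 intensities minus the 75th percentile of the mouse probes on the same array, and a difference is between the levels of 1 probe, or the mean over the probes of 1 gene, on 2 arrays. Intensities themselves are not scaled between arrays. Probes with 5 or more spots on an array had an SD of log2 intensity of 0.14 on each array, and 2 SDs of a difference between arrays came to 0.40, which is 1.32-fold, a spread that holds no variation between cultures, embryos or sorts. It is the spread for single spots and was applied unchanged to means over several probes, whose spot noise would be smaller. For genes with several probes a difference called within it could therefore exceed the spot noise of their mean.

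All 20 probes of the 10 genes were well above background on all 3 arrays, 0 of their 60 spots carried an outlier flag, and the scanner software's own error estimate was 10.0% to 10.6% of the intensity. The 19 probes other than 1 of *Ncam1* were also above the control probes on every array and above the 68th percentile of the mouse probes.

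**Figure D1:**
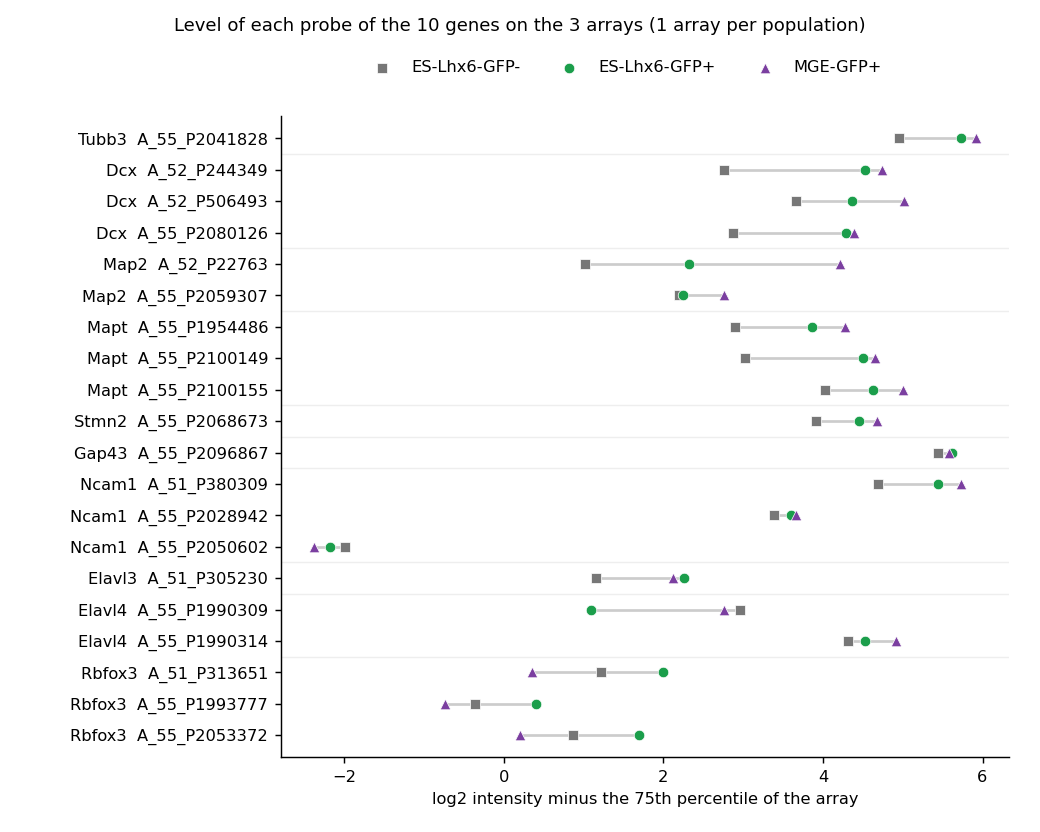
The plot gives the level of each of the 20 probes on the 3 arrays, as log2 intensity minus the 75th percentile of the array, with 1 symbol per population and a grey line from the lowest to the highest. In 6 of the 10 genes the MGE-GFP+ level, averaged over probes, was the highest and the ES GFP- level the lowest. Of these 6 only *Map2* differed between the GFP+ populations by more than 2 SDs of a difference between repeat spots. The share of all genes with this order was not counted. *Gap43*, *Elavl3*, *Elavl4* and *Rbfox3* ran in other orders, as did the *Elavl4* probe A_55_P1990309. Within the 6 genes the dim *Ncam1* probe A_55_P2050602 ran in the opposite order, at -1.99 in ES GFP-, -2.18 in ES GFP+ and -2.38 in MGE-GFP+ cells. Positions of different probes on the axis are not comparable as amounts of RNA.

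The single probe of *Tubb3* read intensities of 26007 in ES GFP-, 39468 in ES GFP+ and 34729 in MGE-GFP+ cells, which were levels of 4.95, 5.72 and 5.91. The level was lowest in ES GFP- cells and, under this scaling, close in both GFP+ populations. ES GFP+ cells were 1.71-fold and MGE-GFP+ cells 1.96-fold above ES GFP- cells, both larger than the repeat-spot spread, while the GFP+ populations differed by 0.19 on the log2 scale, within it. With arrays scaled to their 50th percentile the GFP+ populations differed by 0.94.

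As a mean over probes, *Dcx* had the widest difference of the 10 genes between ES GFP+ and ES GFP- cells. The brightest probe of a gene was taken as that with the highest mean level over the 3 arrays. With that probe *Dcx* was at 0.70, below *Map2* at 1.30 and *Elavl3* at 1.10 and also below *Tubb3*, *Ncam1* and *Rbfox3*. The levels, as the mean over its 3 probes, were 3.10 in ES GFP-, 4.39 in ES GFP+ and 4.71 in MGE-GFP+ cells. Against ES GFP- cells the gene was 2.45-fold higher in ES GFP+ and 3.06-fold higher in MGE-GFP+ cells. The GFP+ populations differed by 0.32, within the repeat-spot spread, and by 1.07 when arrays were scaled to their 50th percentile. All 3 probes ran the same way against ES GFP- cells, with log2 differences of 0.70 to 1.77 for ES GFP+ and 1.35 to 1.98 for MGE-GFP+ cells. The probe with the widest difference read 5693, 17151 and 15325 in ES GFP-, ES GFP+ and MGE-GFP+ cells.

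*Map2* set the MGE apart from both ES cell populations. Its mean levels were 1.60 in ES GFP-, 2.28 in ES GFP+ and 3.48 in MGE-GFP+ cells, so that MGE-GFP+ cells were 3.68-fold above ES GFP- and 2.31-fold above ES GFP+ cells. The size of this difference rested on 1 of its 2 probes, which both carry the accession NM_001039934. A_52_P22763 read 1703, 3716 and 10660 in ES GFP-, ES GFP+ and MGE-GFP+ cells, 9.17-fold more in MGE-GFP+ than in ES GFP- cells after scaling. A_55_P2059307 read 3846, 3529 and 3888, which was 1.48-fold more in MGE-GFP+ cells and a log2 difference of 0.05 between the ES cell populations.

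*Mapt* followed *Dcx*. The mean levels over its 3 probes were 3.32 in ES GFP-, 4.33 in ES GFP+ and 4.64 in MGE-GFP+ cells. ES GFP+ cells were 2.02-fold and MGE-GFP+ cells 2.51-fold above ES GFP- cells. The difference of 0.32 between the GFP+ populations lay within the repeat-spot spread, and was 1.06 when arrays were scaled to their 50th percentile. Each of the 3 probes was lowest in ES GFP- cells, with log2 differences of 0.60 to 1.47 between the ES cell populations, and the lowest of these is that of the brightest probe, so the gene was under 2-fold by that probe alone.

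*Stmn2* had the same order at smaller distances. Its probe read 12685 in ES GFP-, 16388 in ES GFP+ and 14786 in MGE-GFP+ cells, which were levels of 3.91, 4.46 and 4.68. Against ES GFP- cells it was 1.46-fold higher in ES GFP+ and 1.71-fold higher in MGE-GFP+ cells. The GFP+ populations differed by 0.23, within the repeat-spot spread, and by 0.97 when arrays were scaled to their 50th percentile.

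The growth cone gene *Gap43* hardly separated the populations. Its probe read 36746 in ES GFP-, 36644 in ES GFP+ and 27533 in MGE-GFP+ cells, which came to levels of 5.45, 5.62 and 5.58 after scaling. The 3 differences, 0.17 for ES GFP+ over ES GFP-, -0.04 for MGE-GFP+ over ES GFP+ and 0.13 for MGE-GFP+ over ES GFP- cells, all lay within the repeat-spot spread, and the first turned to -0.27 and the second to 0.71 when arrays were scaled to their 50th percentile.

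The adhesion gene *Ncam1* also had all 3 gene differences within the repeat-spot spread, at 0.26 for ES GFP+ over ES GFP-, 0.05 for MGE-GFP+ over ES GFP+ and 0.31 for MGE-GFP+ over ES GFP- cells. The first turned to -0.19 and the second to 0.80 under scaling to the 50th percentile. Its probes differed. A_51_P380309, the brightest, read 21696 in ES GFP-, 32329 in ES GFP+ and 30516 in MGE-GFP+ cells, and was 1.68-fold and 2.06-fold above ES GFP- cells in the GFP+ populations. A_55_P2028942 read 8829, 9066 and 7264 and differed by 0.27 or less. A_55_P2050602 was dim, at 212, 164 and 111, and exceeded the control probes only on the ES GFP- array. In the mean of the gene it counts as much as the other two, and without it the gene would rest on probes that were both higher in the GFP+ populations.

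Of the RNA-binding protein genes, *Elavl3* was lowest in ES GFP- cells. Its probe read 1871 in ES GFP-, 3561 in ES GFP+ and 2515 in MGE-GFP+ cells, which were levels of 1.15, 2.25 and 2.13. It was 2.15-fold higher in ES GFP+ and 1.97-fold higher in MGE-GFP+ than in ES GFP- cells. The GFP+ populations differed by -0.13, within the repeat-spot spread, and by 0.62 in the other direction when arrays were scaled to their 50th percentile.

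*Elavl4* was the only 1 of the 10 genes with a lower mean in ES GFP+ than in ES GFP- cells, and its 2 probes, both with the accession NM_010488, gave different pictures. A_55_P1990314 read 16744 in ES GFP-, 17181 in ES GFP+ and 17332 in MGE-GFP+ cells, with log2 differences of 0.21 between the ES cell populations and 0.60 between MGE-GFP+ and ES GFP- cells. A_55_P1990309 read 6569, 1594 and 3890, so that it was 3.65-fold lower in ES GFP+ than in ES GFP- cells and 3.16-fold higher in MGE-GFP+ than in ES GFP+ cells. Over the processing alternatives the first probe stayed between -0.23 and 0.40 for ES GFP+ over ES GFP- cells and the second between -2.31 and -1.61. The mean of the gene, 1.77-fold lower in ES GFP+ cells, therefore stands for neither probe.

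*Rbfox3* was highest in ES GFP+ and lowest in MGE-GFP+ cells with each of its 3 probes, as the plot of levels shows. A_51_P313651 read 1957 in ES GFP-, 2971 in ES GFP+ and 739 in MGE-GFP+ cells. A_55_P2053372 read 1540, 2414 and 664, and A_55_P1993777 read 657, 988 and 345. ES GFP+ cells were 1.73-fold above ES GFP- cells, with probes between 0.76 and 0.82 on the log2 scale. MGE-GFP+ cells were 2.68-fold below ES GFP+ cells, with probes between -1.63 and -1.14, and 1.55-fold below ES GFP- cells. Over the alternatives the 3 probes ranged from -1.76 to -0.40 for MGE-GFP+ over ES GFP+ cells, so the direction held under each of them and the 2-fold size did not hold under scaling to the 50th percentile, where the gene was at -0.67.

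**Figure D2:**
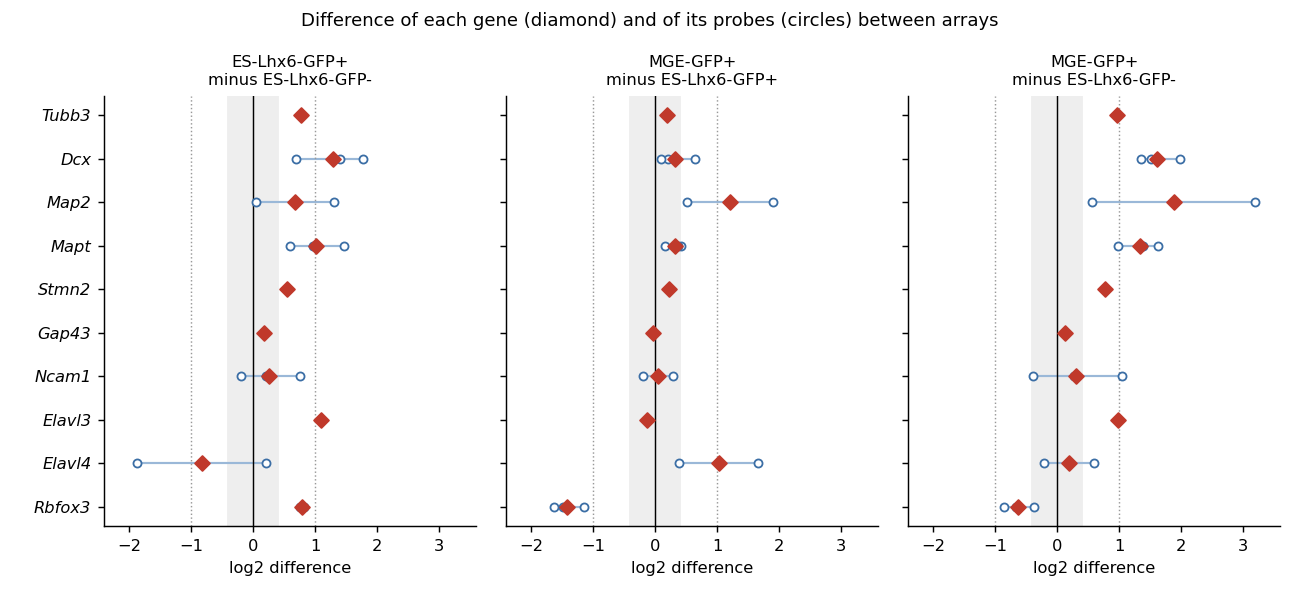
Each panel plots the log2 difference of 1 pair of arrays for the 10 genes, as the mean over probes (diamond) and for the single probes of genes with more than 1 (circles). The grey band is 2 SDs of a difference between repeat spots, 0.40 on either side of 0, and dotted lines mark 2-fold. *Map2* and *Elavl4* have probes far apart, and the *Rbfox3* probes lie together.

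Counting probes above the control probes, those of 1 gene disagreed by 1 or more on the log2 scale in 3 of the 6 genes with several probes between ES GFP+ and ES GFP- cells (*Dcx*, *Map2* and *Elavl4*), in 2 between MGE-GFP+ and ES GFP+ cells (*Map2* and *Elavl4*) and in 1 between MGE-GFP+ and ES GFP- cells (*Map2*). Among 2125 bright genes with 2 or more probes, the same was seen in 9.79%, 18.3% and 16.0%. Which part of a transcript each probe reads was not analysed here.

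Between ES GFP+ and ES GFP- cells, 9 of the 10 genes were higher and 1, *Elavl4*, was lower, beside 55.8% of the bright genes that were higher. The 3 that reached 2-fold were *Dcx*, *Mapt* and *Elavl3*, and 0 were 2-fold lower, against 24% of all 18655 genes at least 2-fold higher and 6.4% at least 2-fold lower, and against 6.03% and 4.14% of the bright genes. Beyond the repeat-spot spread, 7 were higher (*Tubb3*, *Dcx*, *Map2*, *Mapt*, *Stmn2*, *Elavl3* and *Rbfox3*), 1 was lower and 2 lay within it, and of the bright genes 27% were higher and 19.3% lower beyond it. With the brightest probe of each gene in place of the mean, *Dcx* and *Mapt* fell under 2-fold, at 0.70 and 0.60, and *Map2* passed it, at 1.30. This left 2 genes called, *Map2* and *Elavl3*. The *Map2* probe so chosen was the brightest only through its MGE-GFP+ level, and on the ES GFP- array it was the dimmer of the 2. Scaling to the 50th percentile left 0 genes called. The median log2 difference of the 10 genes was 0.73, beside 0.27 for all genes and 0.07 for the bright genes. The 10 differences come from 1 pair of arrays, and a shift of scale moves them together.

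Between MGE-GFP+ and ES GFP+ cells, 7 of the 10 differences lay within the repeat-spot spread, 2 were higher beyond it and 1 lower, beside 30.8% and 23.1% of the bright genes. Counted by sign alone 7 were higher, beside 55.7% of the bright genes. Under scaling to the 50th percentile the 7 genes within the spread ran from 0.62 for *Elavl3* to 1.07 for *Dcx*, beside a median of 0.84 for the bright genes. The 2 genes at least 2-fold higher in MGE-GFP+ cells were *Map2* and *Elavl4*, at 2.31-fold and 2.03-fold, and the 1 gene at least 2-fold lower was *Rbfox3*. With the brightest probe *Elavl4* was at 0.39 and no longer called. The shares of all 18580 genes were 5.48% higher and 32.2% lower, and those of the bright genes 7.4% higher and 7.44% lower. The median of the 10 genes was 0.21, beside -0.36 for all genes and 0.10 for the bright genes.

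Between MGE-GFP+ and ES GFP- cells, 9 of the 10 genes were higher and *Rbfox3* was lower, beside 58.8% of the bright genes that were higher. Beyond the repeat-spot spread 6 were higher and 1 lower, beside 35.6% and 22.1% of the bright genes. *Dcx*, *Map2* and *Mapt* were at least 2-fold higher and 0 were at least 2-fold lower, while *Tubb3* and *Elavl3*, at 1.96-fold and 1.97-fold, were just under 2-fold. With the brightest probe *Mapt*, at 0.98, was under 2-fold and *Ncam1*, at 1.04, was over it. Of all 17025 genes 9.9% were at least 2-fold higher and 17.2% lower, and of the bright genes 11.8% and 7.73%. The median of the 10 genes was 0.87, beside -0.06 for all genes and 0.15 for the bright genes. The 3 comparisons share arrays, so the differences of 1 gene in them are not independent of each other.

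**Figure D3:**
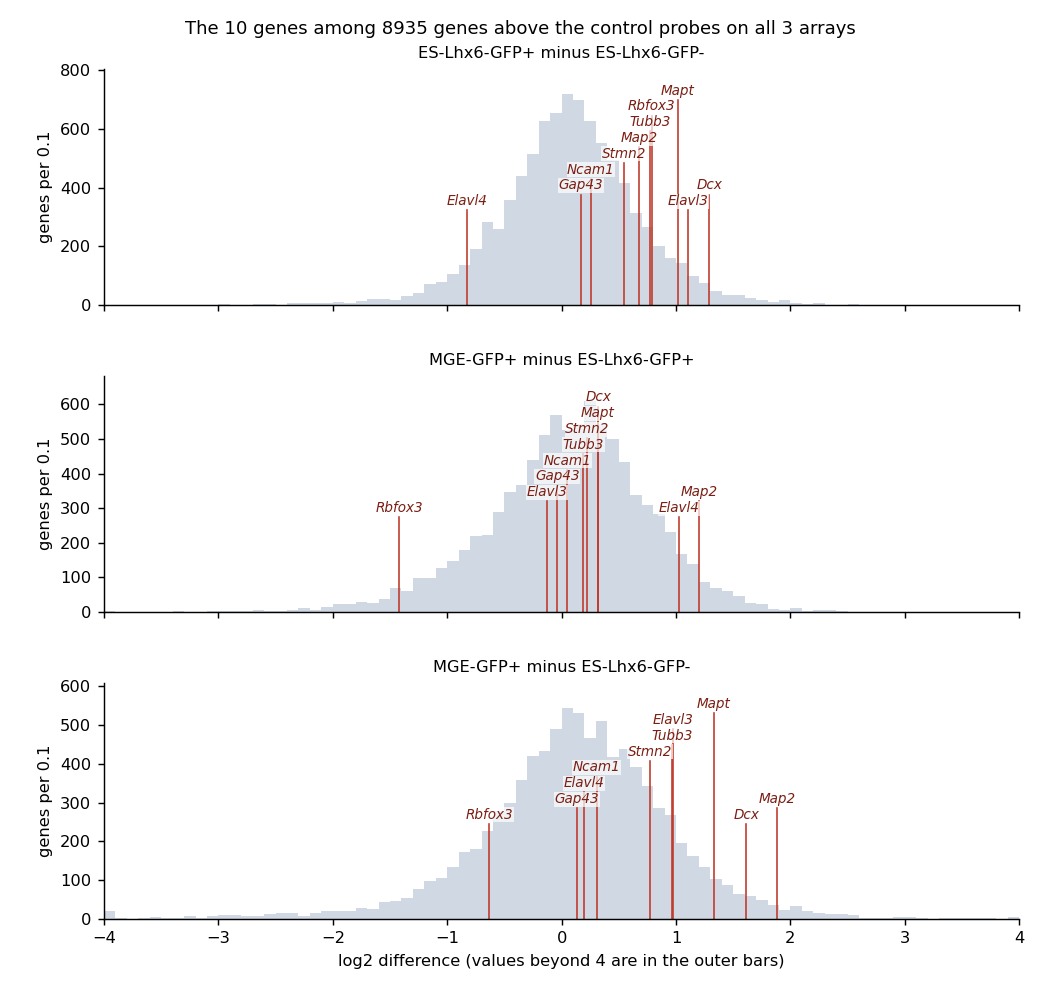
Histograms of the log2 differences of the 8935 bright genes, in bins of 0.1, with the 10 genes marked by red lines whose height has no meaning. Against ES GFP- cells most of the 10 lie to the right of the peak, with *Dcx* above 97.5% of the bright genes for ES GFP+ and *Map2* above 98.1% for MGE-GFP+ cells, and between the GFP+ populations *Rbfox3* lies above only 2.98% of them.

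The split of higher and lower calls over all genes depended on the scaling, which bears on how the counts above read. Of the genes at least 2-fold different, 78.9% were higher in ES GFP+ than in ES GFP- cells, and the share was 52.1% with arrays scaled to their 50th percentile, 43.4% with quantile normalization and 46.6% for the log2 values that the authors deposited. The share higher in MGE-GFP+ than in ES GFP+ cells was 14.6%, and 60.3%, 51.7% and 42.9% under the same alternatives. The share higher in MGE-GFP+ than in ES GFP- cells was 36.5%, and 58.7%, 44.9% and 41.6%. Scaling to the 50th percentile moved the median of all genes from 0.27 to -0.18, from -0.36 to 0.40 and from -0.06 to 0.25 in the 3 comparisons. Relative to the median of all genes under the same setting, the median of the 10 genes was above it in each comparison under every alternative but quantile normalization between MGE-GFP+ and ES GFP+ cells, where it was at -0.02.

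**Figure D4:**
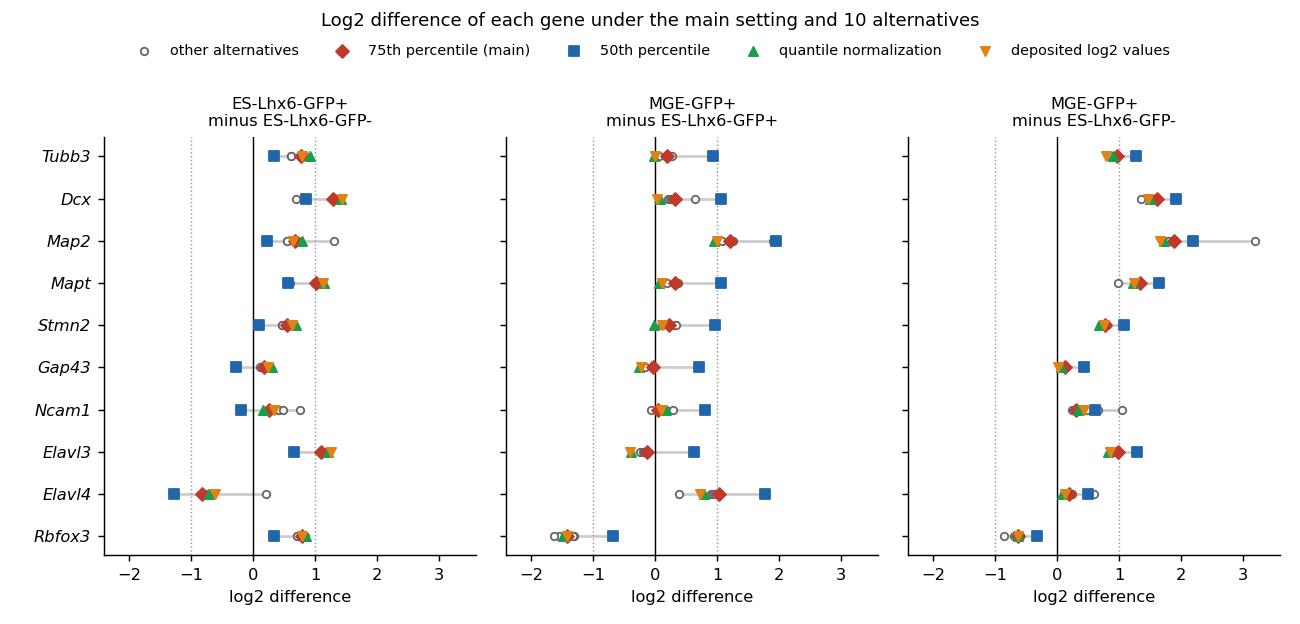
Each panel shows the log2 difference of the 10 genes for 1 pair of arrays under the main setting (red diamond) and 10 alternatives, of which scaling to the 50th percentile (blue square), quantile normalization (green triangle) and the deposited log2 values (orange) are marked, with a line from the lowest to the highest. Scaling to the 50th percentile moved every gene of a panel by the same amount, and using only the brightest probe of a gene moved *Dcx*, *Map2*, *Mapt*, *Ncam1* and *Elavl4* between the ES cell populations by more than the SD of a difference between repeat spots.

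Related genes of the same families were read from a list of 19. In ES GFP+ against ES GFP- cells, 12 of the 19 were higher and 7 lower, with 7 higher and 2 lower beyond the repeat-spot spread and a median of 0.34, which was -0.10 under scaling to the 50th percentile. These counts read against the 55.8%, 27% and 19.3% of bright genes that were higher, higher beyond the spread and lower beyond it. *Stmn3* was the 1 at least 2-fold higher, at 2.07-fold, and *Rbfox1*, a splicing regulator related to *Rbfox3*, the 1 at least 2-fold lower, at 2.16-fold. Of the bright genes 6.03% were at least 2-fold higher and 4.14% at least 2-fold lower. In MGE-GFP+ against ES GFP- cells, 14 of 19 were higher, 6 of them at least 2-fold (*Stmn1*, *Stmn3*, *Dclk1*, *Dclk2*, *Elavl2* and *Rbfox2*), and *Ncam2* and *Rbfox1* were at least 2-fold lower. Of the bright genes 58.8% were higher in this comparison, 11.8% at least 2-fold higher and 7.73% at least 2-fold lower.

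**Figure D5:**
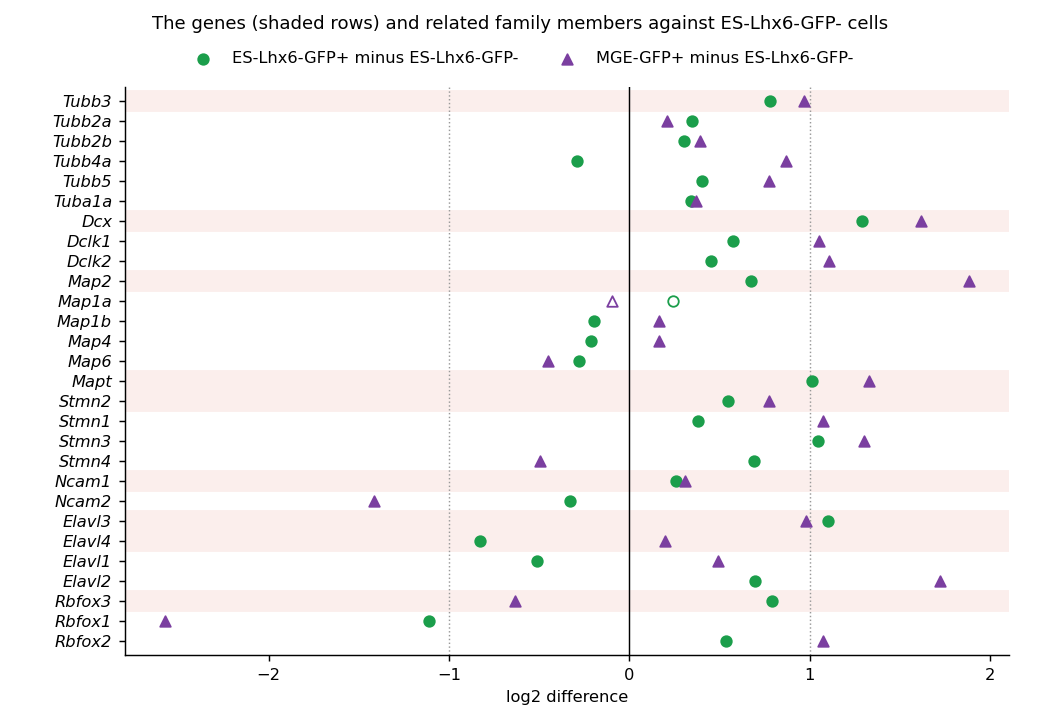
Log2 differences of the genes described here, except *Gap43* (shaded rows), and of 19 related genes, in ES GFP+ (green circles) and MGE-GFP+ cells (purple triangles) over ES GFP- cells. Open symbols mark *Map1a*, with 1 probe not well above background on the ES GFP- array, and dotted lines mark 2-fold. *Rbfox1* lies furthest to the left, at -1.11 and -2.58, and *Rbfox2* on the right, at 0.54 and 1.07.

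Between the ES cell populations the other tubulins differed less than *Tubb3*. In ES GFP+ over ES GFP- cells *Tubb2a*, *Tubb2b* and *Tuba1a*, which encode major tubulins of embryonic brain, were at 0.35, 0.30 and 0.34, within the repeat-spot spread, *Tubb5* was at 0.40 and *Tubb4a* at -0.29, and of these *Tubb2a*, *Tubb2b*, *Tuba1a* and *Tubb5* turned below 0 under scaling to the 50th percentile. In MGE-GFP+ over ES GFP+ cells *Tubb4a* was at 1.16, while *Tubb5* was at 0.37 and the others between -0.13 and 0.08. The doublecortin-like kinase genes *Dclk1* and *Dclk2* had the order of *Dcx* at smaller distances from ES GFP- cells, with 0.57 and 0.45 in ES GFP+ and 1.05 and 1.10 in MGE-GFP+ over ES GFP- cells. Between the GFP+ populations their distances were larger, at 0.48 and 0.65 in MGE-GFP+ over ES GFP+ cells beside 0.32 for *Dcx*.

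Of the microtubule-associated protein genes beside *Map2*, *Map1b*, *Map4* and *Map6* were at -0.20, -0.21 and -0.28 in ES GFP+ over ES GFP- cells, within the repeat-spot spread, with *Map1b* at 0.02 with its brightest probe. *Map1a* was at intensities of 549, 360 and 297 on the ES GFP-, ES GFP+ and MGE-GFP+ arrays, as means of 2 probes, so its differences from ES GFP- cells are bounds, and its sign depended on the setting in all 3 comparisons. The stathmin genes split. *Stmn1* and *Stmn3* were at 1.07 and 1.30 in MGE-GFP+ over ES GFP- cells, as *Stmn2* was at 0.77, whereas *Stmn4* was highest in ES GFP+ cells, 1.61-fold above ES GFP- and 2.28-fold above MGE-GFP+ cells. *Ncam2*, the paralog of *Ncam1*, was at -1.42 in MGE-GFP+ over ES GFP- cells.

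Among the relatives of the RNA-binding protein genes, *Elavl2*, a further neuronal Hu gene, was at 0.70, 1.03 and 1.72 in ES GFP+ over ES GFP-, MGE-GFP+ over ES GFP+ and MGE-GFP+ over ES GFP- cells. *Elavl1*, the member of the family made in most cell types, was at -0.51, 1.00 and 0.49. The 3 *Rbfox* genes had 3 different orders: *Rbfox1* read 2514, 996 and 283 in ES GFP-, ES GFP+ and MGE-GFP+ cells as the mean of 2 probes and was lower at each step, *Rbfox2* was 1.45-fold higher at each step and *Rbfox3* was highest in ES GFP+ cells. MGE-GFP+ cells were thus 5.96-fold below ES GFP- cells for *Rbfox1* and 2.10-fold above them for *Rbfox2*.

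Wider lists of the same pathways gave smaller medians than the 10 genes in ES GFP+ over ES GFP- cells. Of the bright genes 55.8% were higher there. Of 28 further genes of the neuronal cytoskeleton, of which 12 are in the family list too, 21 were higher and 7 lower, with a median of 0.36, from *Sncb* at 1.34 to *Sncg* at -1.47, both genes of the synuclein family. *Sncg* was within the range of the control probes on the ES GFP+ array. Of 18 growth cone and adhesion genes 12 were higher, with a median of 0.25, from the adhesion gene *L1cam* at 1.31 to the contactin gene *Cntn1* at -0.76. Of 20 genes listed here as neuronal RNA-binding, a label that was not checked for each gene, 16 were higher, with a median of 0.50. They ran from *Khdrbs2*, a splicing regulator, at 2.11 to *Rbm24* at -2.26, whose probe was within the range of the control probes. Under scaling to the 50th percentile the first 2 of these medians were -0.08 and -0.19 and the third 0.06.

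In MGE-GFP+ over ES GFP+ cells the same 3 lists had medians of 0.01, 0.16 and 0.10, near that of the bright genes. Of the bright genes 55.7% were higher there. The cytoskeleton list was split evenly, 14 higher and 14 lower, from *Tubb4a* at 1.16 to *Sncb* at -3.40. The growth cone and adhesion list, 11 of 18 higher, ran from *Marcks*, a membrane-bound actin regulator, at 1.43 to *L1cam* at -1.40, and the neuronal RNA-binding list, 11 of 20 higher, from *Celf3* at 1.07 to *Cpeb1* at -3.43. In MGE-GFP+ over ES GFP- cells the medians were 0.22, 0.56 and 0.38, with *Stmn3*, *Marcks* and *Khdrbs2* highest, at 1.30, 1.57 and 2.52, and *Sncg*, *Ncam2* and *Cpeb1* lowest, at -4.21, -1.42 and -3.40. The probes of *Sncg* and *Cpeb1* were within the range of the control probes on the MGE-GFP+ array.

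A list of 14 RNA-binding genes of progenitors and non-neuronal cells ran the other way between the ES cell populations. In ES GFP+ cells 12 of the 14 were lower, 10 beyond the repeat-spot spread, beside 19.3% of the bright genes that were lower beyond it. The median was -0.60, with a range of -1.04 to -0.40 over the alternatives. *Lin28a*, at -1.52 and within the control probes on both GFP+ arrays, was the lowest and *Mbnl3*, at 0.69 and within them on every array, the highest. *Ptbp1*, which represses neuronal exons, was 2.42-fold lower and its neuronal relative *Ptbp2* 1.34-fold higher, a pair named after the values were seen. Scaling to the 50th percentile moves the genes of this comparison alike, and took *Tubb5* from 0.40 to -0.04 and *Dclk2* from 0.45 to 0.01. *Ptbp2*, at 0.42, lies between them, so its rise rested on the scaling. In MGE-GFP+ over ES GFP+ cells 11 of the 14 were higher, beside 55.7% of the bright genes, with a median of 0.39, from *Elavl1* at 1.00 to *Mbnl3* at -0.19. In MGE-GFP+ over ES GFP- cells 7 were higher and 7 lower, beside 58.8% of the bright genes that were higher, from *Lin28b* at 0.69 to *Lin28a* at -1.54.

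Marker genes of other cells moved with the comparison of the ES cell populations. All 10 markers of radial glia and progenitors were lower in ES GFP+ than in ES GFP- cells, from *Sox2* at -0.98 to *Slc1a3* at -3.76, and their summed level, in multiples of the 75th percentile of the array, was 70.2 in ES GFP-, 13.6 in ES GFP+ and 18.7 in MGE-GFP+ cells. *Slc1a3* was within the control probes on both GFP+ arrays. All 8 cell cycle genes were lower too, 7 of them beyond the repeat-spot spread, while *Aurkb* was within the control probes on every array and its -0.13 is a bound, with summed levels of 8.63, 1.66 and 3.32. Of 5 oligodendrocyte lineage markers 4 were lower, with summed levels of 7.81, 1.27 and 1.32, and of 4 astrocyte markers 3 were lower, with 4.19, 1.36 and 0.54. These are sorted populations of many cells, in which fewer cells of a type and less RNA per cell cannot be told apart, and the part of these cells in the differences of the 10 genes was not tested.

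All 8 genes listed as markers of neurons that come from the MGE were at least 2-fold higher in ES GFP+ than in ES GFP- cells, beside 6.03% of the bright genes. Among them the paper names *Dlx2* and *Gad1* as genes of the subpallium, the ventral forebrain as a whole. The median of the 8 was 1.98, and the sorted gene itself, *Lhx6*, was 6.19-fold higher as a mean over 3 probes. Of these *Lhx6* probes A_55_P2094149 and A_55_P2094158 were 16.5-fold and 13.9-fold higher, while A_55_P2005903, by far the brightest at intensities of 122188 in ES GFP- and 111947 in ES GFP+ cells, was 1.03-fold higher. Summed levels of the 7 markers other than *Lhx6* were 15.3 in ES GFP-, 66.7 in ES GFP+ and 87.5 in MGE-GFP+ cells, and with *Lhx6* 64.3, 127 and 165. Markers of mesenchyme, with 5 of 6 above the control probes on the ES GFP- and 2 on the ES GFP+ array, were above them in 0 of 6 cases on the MGE-GFP+ array, with summed levels of 5.38, 3.85 and 0.29. Of the erythroid markers only *Hba-a1*, an alpha-globin gene, was above the control probes, on all 3 arrays, and it was 12.0-fold higher in MGE-GFP+ than in ES GFP+ cells, at intensities of 646 in ES GFP+ and 6003 in MGE-GFP+ cells. Of 4 endothelial markers 1 was above the control probes on each array, and of 4 microglial markers 2, 2 and 3 were on the ES GFP-, ES GFP+ and MGE-GFP+ arrays. Of 4 pluripotency markers 4, 1 and 1 were, with *Pou5f1* at intensities of 612, 192 and 59.2. The 1 above them on every array was *Nanog*, at intensities of 251126, 230708 and 225105 and at 0.05 in ES GFP+ over ES GFP- and 0.34 in MGE-GFP+ over ES GFP+ cells, and *Zfp42* was at 0.46 in ES GFP+ over ES GFP- cells. The other 3 markers were lower in MGE-GFP+ than in ES GFP+ cells. What the single *Nanog* probe reads was not tested, so its signal cannot be taken as expression of *Nanog*.

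The genes with a pattern most like that of the 10 were sought among the 8935 bright genes by the distance between their 3 levels, each centred on its own mean, and the median profile of the 10 genes, which was -0.51 in ES GFP-, 0.15 in ES GFP+ and 0.36 in MGE-GFP+ cells. The nearest 5 were *Ddx50*, *Chst10*, *Ndrg4*, *Slc30a4* and *Amn1*, at distances of 0.0048 to 0.015. Of the 10 genes themselves *Tubb3* and *Stmn2* lay nearest to the median profile, at 0.088, and *Elavl4* and *Rbfox3* furthest, at 1.05 and 1.28. With 3 arrays such a distance rests on 3 values per gene and is a description.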

How the data were processed

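RNA of 3 FACS-purified populations was measured on 1 one-color array each. The authors extracted the images with Agilent Feature Extraction, version 10.7.3.1 per the file headers, and deposited spot intensities, linear, background-subtracted and not scaled between arrays. They also deposited log2 values, normalized across arrays by a method that the table does not state. The paper and the labels name different amplification kits, array formats and software versions.

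Intensities were taken to log2 and the 75th percentile over mouse probes of the array was subtracted. Outlier-flagged spots were left out and repeat spots averaged. A probe not well above background was raised to the lowest level of a probe with that call, so a fold against it is a bound. Values of a gene's probes were averaged. Probes were named through RefSeq accessions on GRCm38, while the header gives mm9, so the only coordinates given are those of the promoter table. The genes and lists were chosen with earlier results of these data known. Named were all 10 genes, each gene of the family list, the highest and lowest gene of the other lists where a list bears on the results, and the 5 nearest profiles. A gene was called at 2-fold or more. The number of arrays limits the precision. Alternatives were other scalings, background corrections and floors, the deposited values, the brightest probe and flagged spots kept. The calculation was tested on simulated data with 200 changed genes. Python 3.11.15, pandas 2.3.3, R 4.3.3 and limma 3.58.1 were used.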

Additional observations from a re-analysis of the deposited data

How the results depend on the processing

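No paired analysis was possible because each population had 1 array. Of 300 values of single genes under 10 alternatives, 237 moved by less than the SD of a difference between repeat spots and 63 moved by more, and 0 of the genes at least 2-fold different changed direction. Scaling arrays to their 50th percentile changed counts the most. Between ES GFP+ and ES GFP- cells it left 0 of the 3 genes 2-fold higher and made 1 gene, *Elavl4*, 2-fold lower. With the brightest probe 2 genes were higher there, *Map2* at 1.30 and *Elavl3*, while *Dcx* and *Mapt* were at 0.70 and 0.60. Scaling to the 50th percentile gave 4 genes higher and 0 lower between MGE-GFP+ and ES GFP+ cells, and 6 higher between MGE-GFP+ and ES GFP- cells. Between MGE-GFP+ and ES GFP+ cells the count of genes 2-fold higher was 0 after quantile normalization, and 1 with the 75th percentile over probes detected on all arrays, with normexp, without background subtraction, in the deposited values and with the brightest probe.

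The median of the 10 genes minus that of all genes was 0.46 between ES GFP+ and ES GFP- cells, and 0.82 after quantile normalization, 0.70 in the deposited values and 0.71 with a floor at the control probes. Between MGE-GFP+ and ES GFP+ cells it was 0.56, and -0.021, 0.070 and 0.10 under the same settings and 0.11 against the bright genes. Between MGE-GFP+ and ES GFP- cells it was 0.92, and 0.70 after quantile normalization and 0.72 against the bright genes. The cause of these shifts was not tested. Signs of differences under 2-fold also turned, for *Elavl4* between the ES cell populations to 0.21 with the brightest probe, for *Tubb3* and *Stmn2* between the GFP+ populations to -0.01 and -0.02 after quantile normalization, and for *Ncam1* there to -0.07 with the percentile over detected probes.

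A planned normexp correction on mean signals was not run, because the files used here hold no such column, and median signals were used in its place. This and the comparison with bright genes were chosen after seeing the data. Without replicate arrays, differences between populations cannot be told from differences between single preparations.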
